A study of Drosophila melanogaster with 9 samples.

Results

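The digestive enzyme genes of the Drosophila gut were followed in larvae with 3 X chromosomes. The set was defined by name alone: all protein-coding genes whose symbol begins with Jon and a number, ends in Try, begins with Mal-A, Mal-B, Amy- or LMan, or is Lys with 1 further capital letter. This gave 51 of the 13895 protein-coding genes in the table, namely 16 Jonah proteases, 11 trypsins, 6 alpha-mannosidases of the LMan family, 10 maltases, 2 amylases and 6 lysozymes. LysC also has such a symbol but is annotated as a pseudogene and was left out. The genes lie on the autosomal arms 2L (11 genes), 2R (22 genes), 3L (13 genes) and 3R (5 genes), and none is on the X chromosome, so that each has the same number of gene copies in all groups. They form 14 clusters in which neighbouring members lie less than 20 kb apart, counting Jon44E and Jon74E, which stand alone, as clusters of 1 gene.

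Most of these enzymes are secreted into the gut lumen or held at the surface of gut cells, while the LMan genes are named as lysosomal alpha-mannosidases. Trypsins and the Jonah proteases, which belong to the same family of serine proteases, cut dietary proteins. Amylases cut starch, maltases release glucose from maltose and sucrose, and alpha-mannosidases remove mannose from glycans. Several lysozymes of the fly are made in the midgut, where they digest the walls of ingested bacteria. Feeding larvae express these genes strongly, and the larval midgut is broken down at metamorphosis.

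RNA of whole third-instar larvae was sequenced in 3 groups with 3 libraries each. The metafemales (XXX, 3 X chromosomes with 2 sets of autosomes) came from C(1)DX, ywf/winscy females, which carry an attached X chromosome, crossed with Canton S males, and were picked by their black mouthparts and sex. The males (XY) and the females (XX) were Canton S wild type, so that the metafemales differ from both in genetic background as well as in X chromosome number, and these cannot be told apart. All stocks were kept at 25 °C, ribosomal RNA was removed before sequencing, and the sources do not say how many larvae entered a library or whether libraries came from separate cultures, so p-values measure only the spread between these libraries.

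Total counts were 139954374 to 168844124 in the metafemale libraries, 130919406 to 177910781 in the male libraries and 138223737 to 184268612 in the female libraries. Levels are given as CPM, the count scaled by the total of the table. The detection floor was set at 3 counts, or 0.0163 to 0.0229 CPM over the libraries, and this limit covers counting error only. Assembled transcripts without a gene took 13.4% of the counts in metafemale replicate 1 and 24.6% to 32.6% in the other 8 libraries. Male replicate 2 stood apart from the other males in these genes and is described after the comparisons. Of the 51 genes, 50 exceeded 3 counts in every library.

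Together the 51 genes took 3.20%, 2.92% and 2.58% of all counts in the metafemale libraries, against 2.06%, 1.13% and 2.05% in the males and 2.08%, 1.89% and 1.66% in the females. The lowest metafemale library was above every male and female library. The mean of the sum was 1.55 times that of the females and 1.66 times that of the males. Per kilobase of transcript, the mean level over all libraries ranged over the genes from 0.201 CPM per kb for Mal-B1 to 2881 CPM per kb for Jon99Cii, followed by Jon99Ciii (2747 CPM per kb) and epsilonTry (2159 CPM per kb).

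The families gave different ratios. The summed level of the alpha-mannosidases was 1060 ± 229 CPM in metafemales and 442 ± 81.6 CPM in females (SD, n = 3 each), a ratio of 2.40. Trypsins summed to 6842 ± 679 CPM in metafemales and 4102 ± 416 CPM in females, a ratio of 1.67, and Jonah proteases to 18718 ± 2260 CPM and 12114 ± 1485 CPM in the same order, a ratio of 1.55. For lysozymes the ratio was 1.18, for maltases 0.922 and for amylases 0.737, and in the maltases and amylases the libraries of metafemales and females overlapped. In whole larvae, more gut cells and more RNA per gut cell cannot be told apart.

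**Figure D1:**
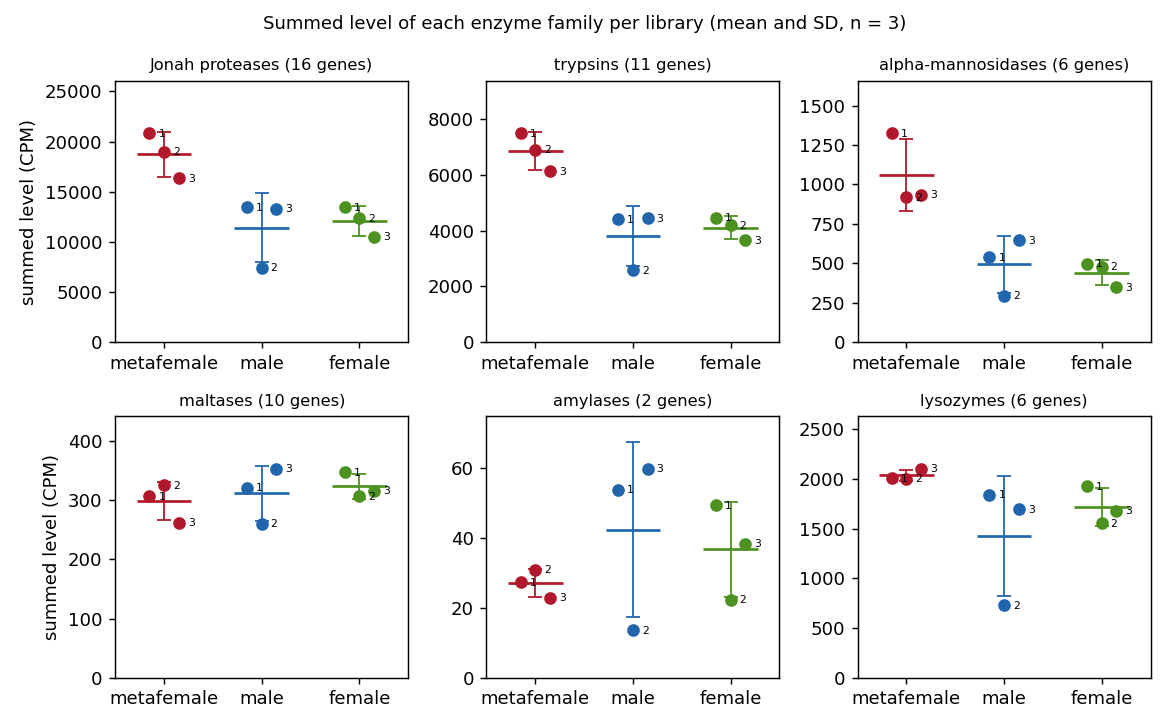
Summed level in CPM (y axes, from 0) of each enzyme family in the metafemale, male and female libraries. Points are libraries with their replicate number, lines are means and bars are SD (n = 3). The metafemale libraries lie above all others for Jonah proteases, trypsins, alpha-mannosidases and lysozymes, with counts scaled by the total of the table. Assembled transcripts took 13.4% of that total in metafemale replicate 1 and 24.6% to 32.6% in the other libraries. The lysozyme sum did not pass the edgeR test against females (log2 fold change 0.26 ± 0.16, SE, adjusted p = 0.237). Male replicate 2 is the lowest library in each of the 6 families.

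In the comparison of metafemales with females, 16 of the 51 genes were called higher, at an adjusted p under 0.05 and a log2 fold change over 1 (edgeR quasi-likelihood test with Benjamini-Hochberg adjustment). This is 31.4% of the genes, against 9.75% of the 11995 genes tested. In the other direction 2 genes (3.92%) were called lower, against 4.83% of all genes tested. The called genes were 5 trypsins, 4 alpha-mannosidases, 3 maltases, 3 Jonah proteases and LysP among those that rose, and LysX and Mal-A5 among those that fell. The 5 trypsins share 1 cluster, as do the 4 alpha-mannosidases and the 3 maltases, while the 3 Jonah proteases lie in different clusters. Calls within a cluster are not independent. With neighbours summed, 1 of 14 clusters was called higher, and 8 were higher at the adjusted p alone. LysP passed the filter on low counts only through the metafemale libraries, so that it had to differ and its call supports nothing. Without it 15 of 50 genes were called higher. With the adjusted p alone, 30 genes were higher and 2 lower, against 20.6% and 18.0% of all genes tested. All 3 metafemale libraries were above all 3 female libraries for 35 genes and below them for 5, against 25.0% and 25.7% of all genes tested. The median log2 fold change was 0.67 over the 51 genes and -0.03 over all genes tested. With each library left out in turn, 12 to 20 genes were called higher, and the calls lost were Jon99Ci, Jon99Fi, Mal-A1 and betaTry without metafemale replicate 2 or female replicate 3, Jon99Ci, LManVI and Mal-A1 without female replicate 2, and Mal-A1 and Mal-A5 without metafemale replicate 1. LysX was lost without metafemale replicate 2, female replicate 2 or female replicate 3. Calls of higher genes were also gained, LysE without metafemale replicate 1 and Jon25Bii and LManI without metafemale replicate 3. Without female replicate 1 these were Jon25Bii, Jon65Aiv, Jon99Cii and Mal-A4, without female replicate 2 LManI, and without female replicate 3 Jon74E. A fit of all 9 libraries called 6 genes higher, LysP, Mal-A2, kappaTry, lambdaTry, thetaTry and zetaTry.

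**Figure D2:**
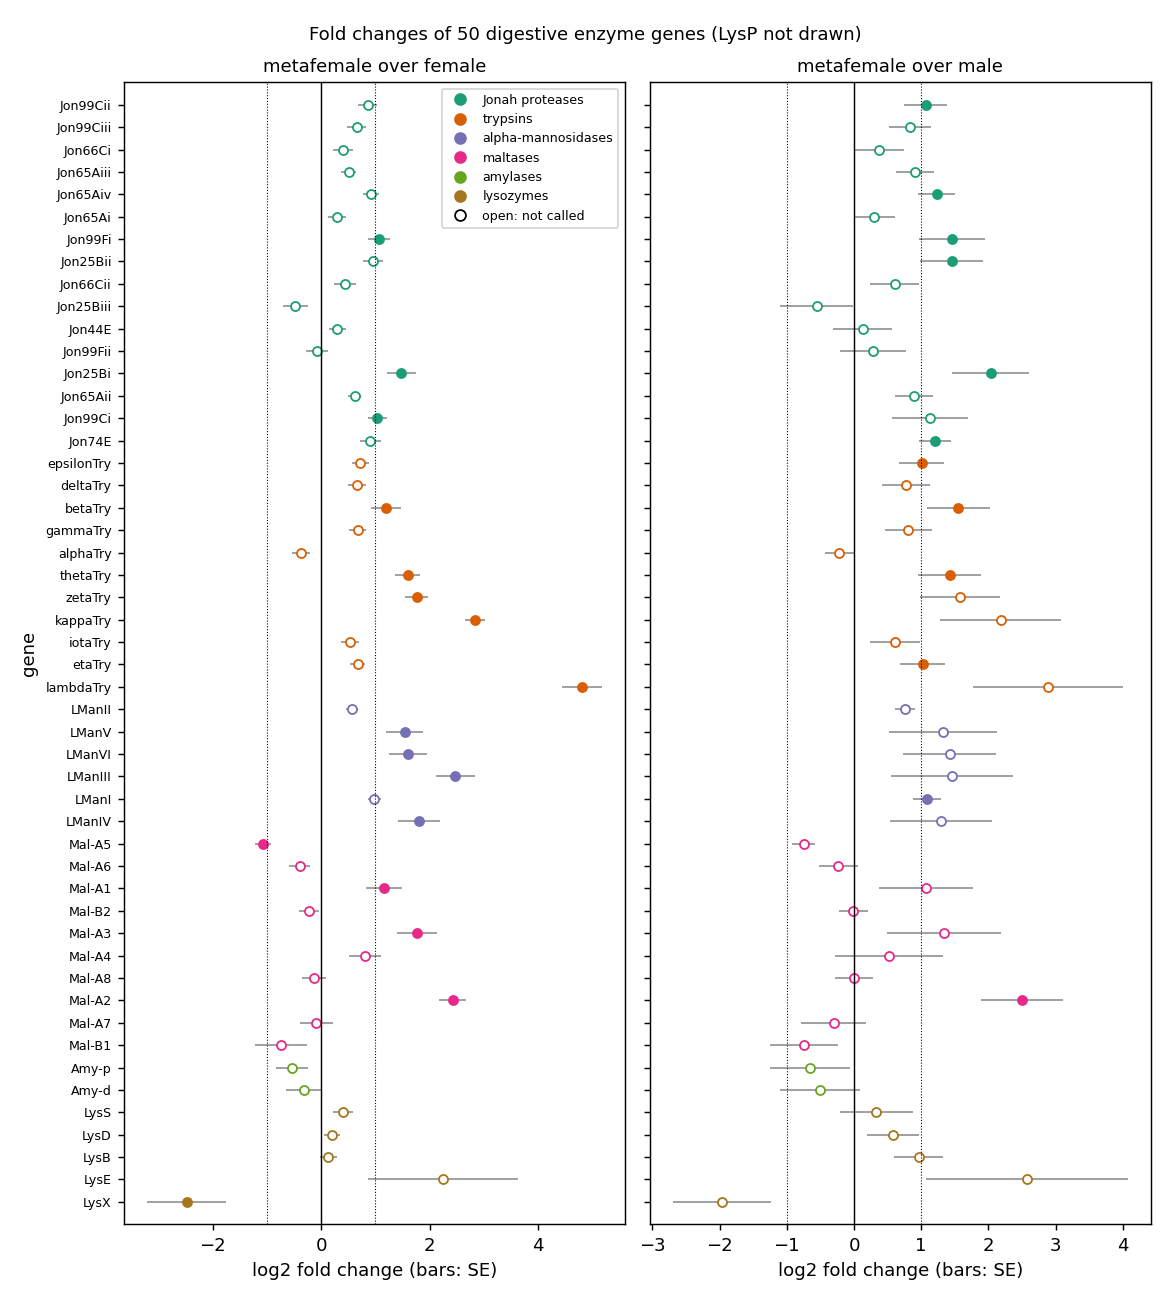
Log2 fold change (x axes) of 50 genes (y axis, by family and falling mean level) for metafemale over female (left) and metafemale over male (right), with SE bars. Filled points passed both thresholds, open points did not, dotted lines mark a log2 fold change of 1 in either direction, and LysP is not drawn. The upper end is held by lambdaTry at 4.81 against females, and the lower end by LysX at -2.48.

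After LysP the highest fold change over females was that of a trypsin, and 5 of 11 were called higher. All 11 lie in 1 cluster of 20.7 kb on 2R (11336840 to 11357537, BDGP6.54). The gene at its first end, lambdaTry, had 12.2, 11.6 and 6.65 CPM in metafemales, against 1.89, 0.0506 and 2.26 CPM in males and 0.298, 0.26 and 0.55 CPM in females. It was 4.81 ± 0.36 higher than in females on the log2 scale (SE, adjusted p = 0.000598), and even the lowest metafemale library was above every male library. Its neighbour kappaTry had 53.3, 48.6 and 35.3 CPM in the metafemale libraries, against 11.6, 1.26 and 17.6 CPM in the males and 6.72, 6.71 and 5.74 CPM in the females, with a log2 fold change over females of 2.84 ± 0.18 (SE, adjusted p = 0.000449). Next in line, zetaTry had 43.3, 42.6 and 40 CPM in metafemales, against 21.7, 4.42 and 18.4 CPM in males and 15.4, 11.5 and 10.3 CPM in females. Its change over females was 1.76 ± 0.21 (SE, adjusted p = 0.00165), and all metafemale libraries exceeded the other 6.

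Further along the cluster the changes were smaller. For thetaTry the libraries held 373, 287 and 253 CPM in the metafemale libraries, against 161, 55.3 and 144 CPM in the males and 113, 116 and 71.7 CPM in the females, a change over females of 1.59 ± 0.24 (SE, adjusted p = 0.00339). The level of betaTry, which is far more abundant, was 1490.0, 1205 and 1051 CPM in metafemales, against 616, 211 and 529.6 CPM in males and 659, 619 and 351 CPM in females, a change of 1.19 ± 0.28 (SE, adjusted p = 0.0164). No library of the other groups reached the lowest metafemale library for either gene.

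The most abundant trypsin by CPM, epsilonTry, had 2524, 2529 and 2442 CPM in the metafemale libraries, against 1625, 917 and 1499 CPM in the males and 1604, 1645 and 1339 CPM in the females. Its change over females was 0.72 ± 0.16 (SE, adjusted p = 0.0125), past the adjusted p but under the fold threshold. The libraries held for deltaTry 1518, 1464 and 1104 CPM in metafemales, against 884, 596 and 1072 CPM in males and 954, 786 and 862 CPM in females, a change of 0.66 ± 0.17 (SE, adjusted p = 0.0237). In the same range were etaTry, gammaTry and iotaTry, with log2 fold changes of 0.67, 0.67 and 0.53 and adjusted p of 0.0117, 0.0176 and 0.0403. These 5 genes were above every female library in all metafemale libraries.

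The exception in the cluster was alphaTry, with 283, 265 and 348 CPM in the metafemale libraries, against 406, 369 and 378 CPM in the males and 397, 412 and 363 CPM in the females. All 3 metafemale libraries were below the females and the males, but the change of -0.37 ± 0.16 (SE, adjusted p = 0.111) did not pass the test. The proteins of gammaTry, deltaTry and of their neighbours CG30025 and CG30031 are known as near-identical copies, so the division of reads among them is uncertain. Their log2 fold changes over females were 0.67, 0.66, 0.64 and 0.66. Summed over the cluster, the trypsins changed by 0.75 ± 0.16 over females (SE, adjusted p = 0.0117).

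**Figure D3:**
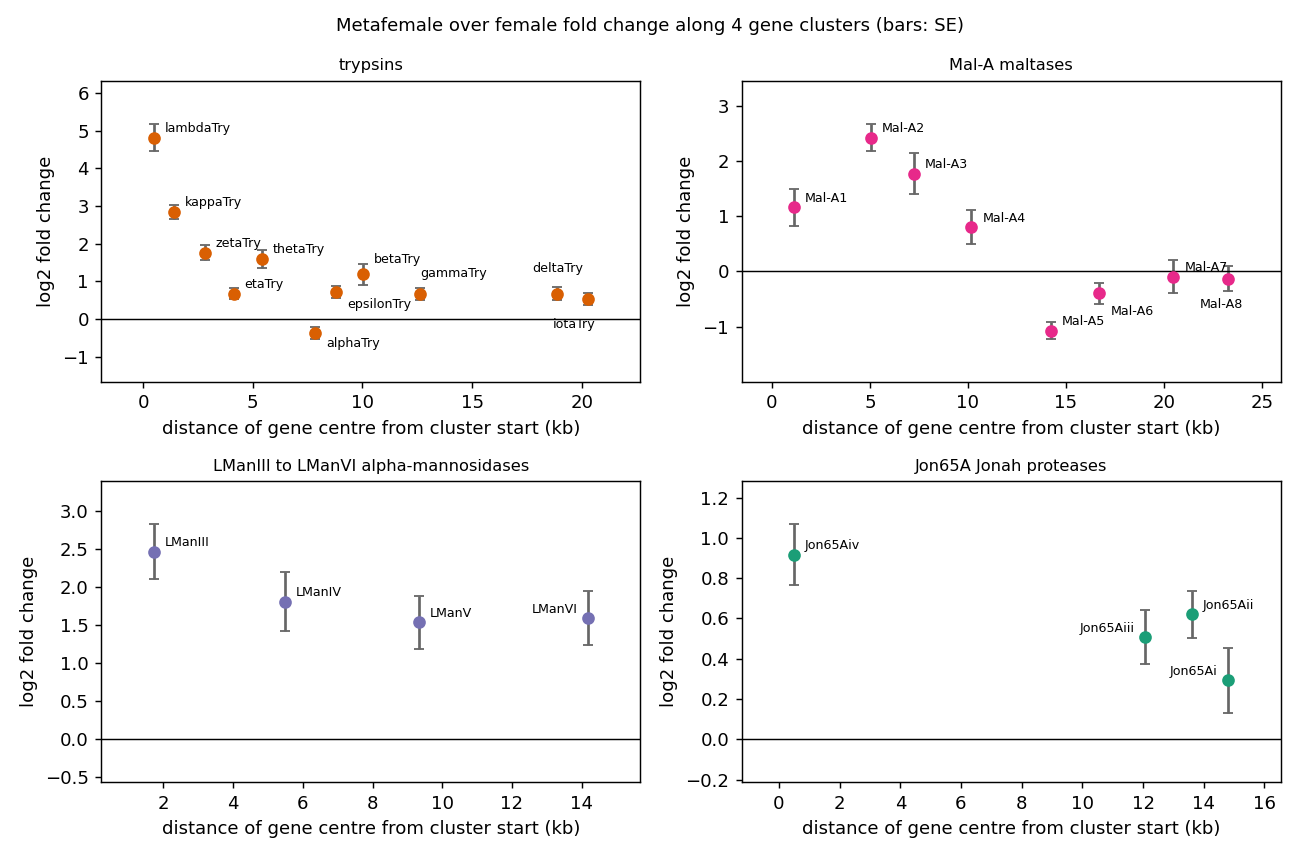
Log2 fold change of metafemale over female (y axes, SE bars) against the distance of each gene's centre from the start of its cluster in kb (x axes), for the trypsins, the Mal-A maltases, LManIII to LManVI and the Jon65A proteases. In the trypsin cluster lambdaTry, kappaTry and zetaTry at 1 end have the highest values, and in the Mal-A cluster Mal-A1 to Mal-A4 lie above 0 and Mal-A5 to Mal-A8 below.

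All 6 alpha-mannosidases were higher in metafemales at an adjusted p under 0.05, and 4 of them passed the fold threshold. Those 4, LManIII to LManVI, lie side by side on 2L (8765273 to 8781252, BDGP6.54). LManIII had 152, 107 and 103 CPM in metafemales, against 34.7, 6.04 and 88.1 CPM in males and 28.8, 23.5 and 11.9 CPM in females, a change over females of 2.47 ± 0.36 (SE, adjusted p = 0.00309). LManV had 384, 251 and 258 CPM in the metafemale libraries, against 142, 19.2 and 196 CPM in the males and 135, 109 and 56.9 CPM in the females, with 1.54 ± 0.35 (SE, adjusted p = 0.0139) over females. LManVI, the last of the row, had 340.3, 233 and 223 CPM in metafemales, against 140.2, 23.3 and 141 CPM in males and 123, 85.1 and 49.7 CPM in females, and its change was 1.60 ± 0.36 (SE, adjusted p = 0.0136). Metafemale libraries were above all other libraries for these 3 genes, and the females differed among themselves, with replicate 3 lowest each time.

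LManIV, the least abundant of the family, had 21.1, 15.7 and 18.7 CPM in the metafemale libraries, against 8.31, 1.46 and 13.1 CPM in the males and 7.75, 5.09 and 2.71 CPM in the females. Its change over females was 1.81 ± 0.39 (SE, adjusted p = 0.0118). The other pair, LManI and LManII, lies elsewhere on 2L (10452677 to 10462472, BDGP6.54) and changed less. LManII, the most abundant of the family by mean CPM, had 335, 239 and 261 CPM in metafemales, against 179, 203 and 165 CPM in males and 168, 208 and 188 CPM in females, a change of 0.57 ± 0.11 (SE, adjusted p = 0.00847). LManI changed by 0.98 ± 0.12 (SE, adjusted p = 0.00188), just under the fold threshold. In this pair male replicate 2 was not the lowest male library, and all metafemale libraries were above all others.

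Maltases changed in both directions. The 8 Mal-A genes stand together on 2R (8449664 to 8473961, BDGP6.54), and the first 3 were called higher while the fifth was called lower. Mal-A1 had 64.9, 73.8 and 38.3 CPM in the metafemale libraries, against 35.7, 7.39 and 43.8 CPM in the males and 35.8, 19.3 and 24.6 CPM in the females, a change over females of 1.16 ± 0.34 (SE, adjusted p = 0.0347). Mal-A2 had 12.1, 12 and 8.35 CPM in metafemales, against 2.15, 0.725 and 3.09 CPM in males and 2.5, 1.73 and 1.84 CPM in females, a change of 2.42 ± 0.24 (SE, adjusted p = 0.00108). Mal-A3 had 45, 48.2 and 24.8 CPM in the metafemale libraries, against 15, 2.64 and 29 CPM in the males and 16.4, 8.33 and 9.85 CPM in the females, a change of 1.77 ± 0.37 (SE, adjusted p = 0.0108). All metafemale libraries were above all females for these genes, but only Mal-A2 was also above every male.

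Mal-A5, the most abundant maltase, went the other way, with 65, 58.1 and 77.9 CPM in metafemales, against 118, 144 and 117 CPM in males and 136, 155 and 136 CPM in females. It fell by 1.07 ± 0.15 on the log2 scale against females (SE, adjusted p = 0.00268), and no metafemale library reached the lowest male or female library. Mal-A6 had 68.2, 73.2 and 54.4 CPM in the metafemale libraries, against 90.5, 64.7 and 95.1 CPM in the males and 101, 73.9 and 85.1 CPM in the females, a change of -0.40 ± 0.20 (SE, adjusted p = 0.15) that did not pass the test. Mal-A4 changed by 0.80 (adjusted p = 0.0744), and Mal-A7, Mal-A8, Mal-B1 and Mal-B2 by -0.09, -0.13, -0.74 and -0.22 with no adjusted p under 0.05. Summed over the Mal-A cluster the change was -0.09 ± 0.16 (SE, adjusted p = 0.700).

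Among the 16 Jonah proteases 3 were called higher, and 10 had an adjusted p under 0.05. Jon25Bi had 745, 798 and 686 CPM in metafemales, against 260.1, 67.6 and 247 CPM in males and 356, 238 and 207 CPM in females, a change over females of 1.48 ± 0.26 (SE, adjusted p = 0.00613). Jon99Fi had 1573, 1348 and 1090.0 CPM in the metafemale libraries, against 591, 238 and 693 CPM in the males and 662, 748 and 514 CPM in the females, a change of 1.06 ± 0.20 (SE, adjusted p = 0.00735). Jon99Ci had 314, 332 and 291 CPM in metafemales, against 195, 52.1 and 203 CPM in males and 178, 139 and 145 CPM in females, a change of 1.03 ± 0.17 (SE, adjusted p = 0.00505). In all 3 genes the metafemale libraries were above every other library.

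Jon99Cii, the most abundant of the 51 genes by mean CPM, had 4015, 3648 and 3125 CPM in the metafemale libraries, against 2111, 1393 and 2076 CPM in the males and 2213, 2017 and 1752 CPM in the females. Its change over females was 0.86 ± 0.17 (SE, adjusted p = 0.00876). The libraries held for Jon99Ciii 3509, 3149 and 2698 CPM in metafemales, against 2195, 1401 and 2093 CPM in males and 2234, 2008 and 1723 CPM in females, a change of 0.65 ± 0.17 (SE, adjusted p = 0.0253). Jon66Ci had 2014, 1881 and 1619 CPM in the metafemale libraries, against 1858, 961 and 1752 CPM in the males and 1613, 1424 and 1158 CPM in the females, where the change of 0.40 ± 0.19 (SE, adjusted p = 0.139) did not pass the test, and male libraries lay within the metafemale range. Within the Jon25B cluster on 2L the neighbours differed: Jon25Bi rose, Jon25Bii changed by 0.96 (adjusted p = 0.00773) and Jon25Biii by -0.48 (adjusted p = 0.142), with all metafemale libraries below the females. Over all 16 genes the log2 fold change ranged from -0.48 to 1.48, with a median of 0.64.

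**Figure D4:**
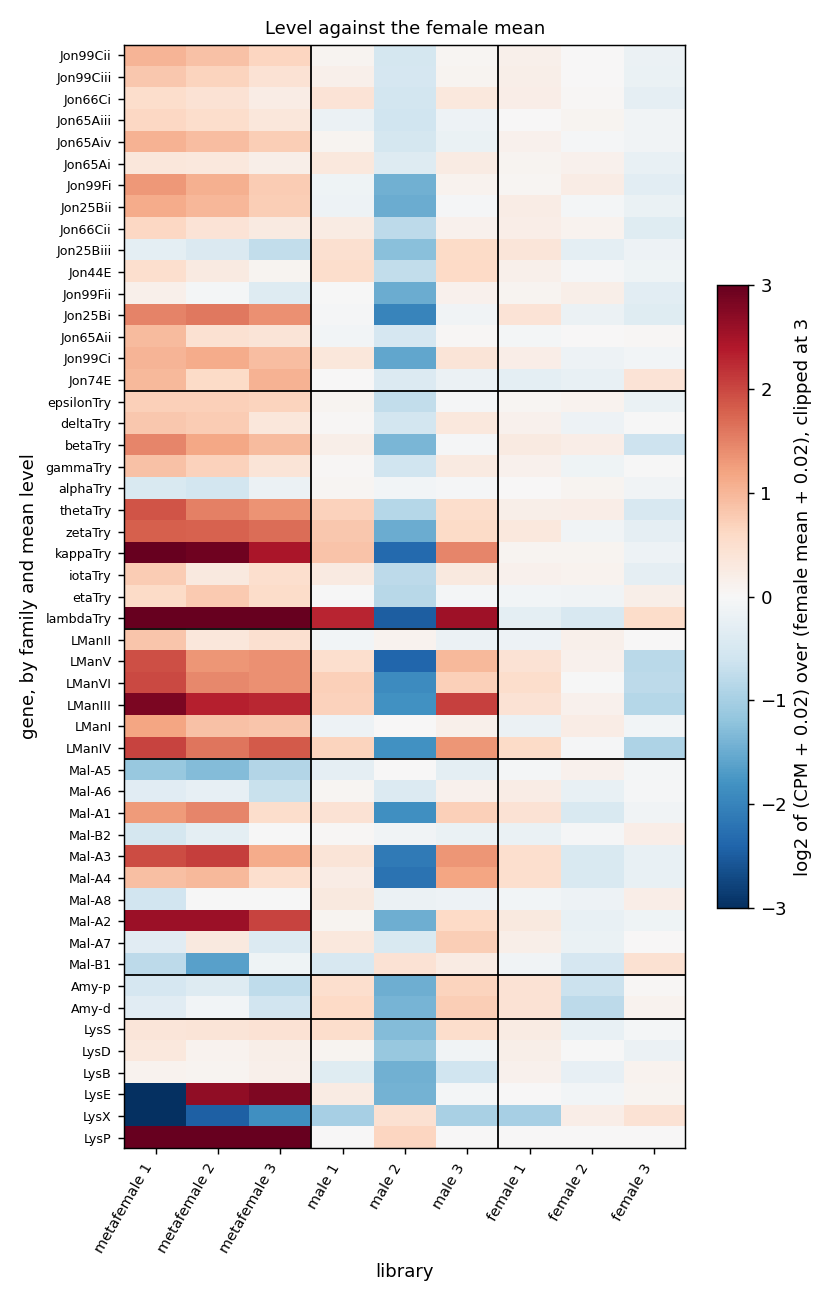
Level of the 51 genes (y axis, by family and falling mean level) in the 9 libraries (x axis), as the log2 of CPM + 0.02 over the female mean + 0.02, clipped at 3 in both directions. Red is above and blue below the female mean. Metafemale libraries are mostly red, with 10 genes blue in all 3 (Mal-A5, Mal-A6, Mal-A8, Mal-B1, Mal-B2, Amy-p, Amy-d, alphaTry, LysX and Jon25Biii), and male replicate 2 is the bluest column.

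Lysozymes held both ends of the range of fold changes. LysP, which is known from adult salivary glands, had 0.793, 0.899 and 0.948 CPM in the metafemale libraries, against 0, 0.0112 and 0 CPM in the males and 0 in every female library. Measured against the floor of 3 counts per library it was at least 45.5-fold higher in metafemales than in females and at least 42.4-fold higher than in males. No p-value is given, since only the metafemale libraries carried it past the filter. LysX, known for expression around metamorphosis, had 0.915, 4.4 and 6.73 CPM in metafemales, against 12, 32.9 and 12.3 CPM in males and 12, 27.4 and 32.7 CPM in females. It fell by 2.48 ± 0.73 on the log2 scale against females (SE, adjusted p = 0.0351), with metafemale replicate 1 lowest of all libraries.

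The abundant lysozymes did not pass the test. LysS had 652, 664 and 688 CPM in the metafemale libraries, against 736, 208 and 734 CPM in the males and 604, 437 and 492 CPM in the females, a change over females of 0.40 ± 0.18 (SE, adjusted p = 0.126). LysD had 725, 627 and 659.8 CPM in metafemales, against 621, 268 and 547 CPM in males and 657, 585 and 515 CPM in females, a change of 0.20 ± 0.15 (SE, adjusted p = 0.334). LysB had 627, 621 and 656 CPM in the metafemale libraries, against 455, 216 and 388 CPM in the males and 641, 491 and 626 CPM in the females, a change of 0.13 ± 0.16 (SE, adjusted p = 0.537). LysB, LysD, LysE and the pseudogene LysC are neighbours with near-identical sequences, so reads may be divided unevenly among them. LysE had 0.364, 83.4 and 90.9 CPM in metafemales, against 15.7, 4.91 and 12.5 CPM in males and 13.2, 12.4 and 13.8 CPM in females, and metafemale replicate 1 alone was nearly empty. Its change over females was 2.24 ± 1.38 (SE, adjusted p = 0.239). Without metafemale replicate 1, LysE was called higher than in females and higher than in males. LysC held 27.6 CPM in female replicate 3, 16.2 CPM in male replicate 2 and 31.8 CPM in male replicate 3, and 0.0357 to 0.0526 CPM in the other 6 libraries. The sum of LysB, LysD and LysE was 1353, 1332 and 1407 CPM in metafemales, against 1092, 489 and 948 CPM in males and 1311, 1089 and 1155 CPM in females.

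Neither amylase passed the test. They are known as near-identical copies, so their sum is given beside the separate values. Amy-p had 14.2, 15.2 and 11.8 CPM in the metafemale libraries, against 28.5, 7.22 and 32 CPM in the males and 26.9, 12.7 and 20.4 CPM in the females, a change over females of -0.54 ± 0.30 (SE, adjusted p = 0.193). Amy-d had 13.1, 15.7 and 11.1 CPM in metafemales, against 25.3, 6.33 and 27.9 CPM in males and 22.5, 9.65 and 18 CPM in females, a change of -0.31 ± 0.34 (SE, adjusted p = 0.493). The sum of both genes was 27.1 ± 3.99 CPM in metafemales and 36.7 ± 13.6 CPM in females (SD, n = 3 each), within the spread of the females. An antisense RNA between these genes, asRNA:CR45272, held 0 to 0.0592 CPM.

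Compared with males, metafemales had 13 of 51 genes called higher (25.5%, against 9.21% of the 13814 genes tested) and none called lower (against 21.6% of all genes tested). At an unadjusted p under 0.05, 2 genes were lower, and DESeq2 called 1 lower, LysX. With the adjusted p alone, 16 genes were higher and 1 lower, against 16.8% and 29.0% of all genes tested. The genes called higher were 6 Jonah proteases, 4 trypsins, LManI, Mal-A2 and LysP. Without LysP, which again passed the filter only through the metafemales, 12 of 50 genes were called. The largest after LysP were Mal-A2 (2.50 ± 0.61, adjusted p = 0.0154), Jon25Bi (2.04 ± 0.57, adjusted p = 0.0266), betaTry (1.55 ± 0.47, adjusted p = 0.0345) and Jon99Fi (1.46 ± 0.49, adjusted p = 0.0486). All metafemale libraries were above all males for 31 genes and below for 3, against 18.2% and 37.2% of all genes tested. The median log2 fold change was 0.91 over the 51 genes and -0.13 over all genes tested. Both metafemale comparisons use the same metafemale libraries.

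The genes lambdaTry, kappaTry, zetaTry and LManIII to LManVI, all called against females, were not called against males. For lambdaTry the change was 2.89 ± 1.11, adjusted p = 0.0743, for kappaTry 2.18 ± 0.90, adjusted p = 0.0889 and for LManIII 1.46 ± 0.90, adjusted p = 0.231. Male replicate 2 held the lowest male level of each. Without that library 12 genes were called higher in metafemales, among them lambdaTry, kappaTry and zetaTry but no mannosidase, and Amy-p was called lower. Without male replicate 1 only 3 genes were called higher, Jon65Aiv, Jon74E and LysP, and without male replicate 3 there were 19.

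Between males and females no gene was called in either direction, against 17.6% of the 13700 genes tested that were higher in males and 0.328% that were lower. None of the 50 genes tested had an unadjusted p under 0.05 with edgeR, and DESeq2 called none. With the adjusted p alone, 0 genes were higher or lower, against 19.5% and 1.28% of all genes tested. LysP was not tested. The libraries did not overlap for 2 genes, Jon65Aiii and LysB, both lower in males, against 3.01% of all genes tested, and 0 of 50 genes lay above all female libraries in all males, against 26.2%. Without male replicate 2, kappaTry (log2 fold change 1.23, adjusted p = 0.0276) and lambdaTry (2.53, adjusted p = 0.00589) were called higher in males.

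Male replicate 2 was the lowest of all 9 libraries for 40 of the 51 genes. Its level was a median of 0.468 times the mean of the other males over 50 genes, with 27 genes (54.0%) under 0.5 times, while over 11079 genes with at least 1 CPM the median was 1.31 and 4.82% were under 0.5 times. The genes most reduced in it, lambdaTry, kappaTry, LManIII and LManV, were called higher in metafemales than in females. Other genes at a ratio below 0.5 were not called higher, among them the amylases, Mal-A4, LysS, Jon99Fii and Jon25Biii. Genes outside the set, from lists described below, were also low in male replicate 2. The other digestive genes summed to 2956 CPM in it, against 4059 and 4173 CPM in the other males. Body wall muscle markers summed to 4259 CPM, against 11262 and 7945 CPM, while the midgut and nervous system markers had their highest male sum in it. The midgut markers were divided. Mur29B (45.2 CPM, against 6.85 and 13.9 CPM) and PGRP-SC2 (65.6 CPM, against 55.3 and 47.6 CPM) had their highest male level in it. Vha100-4 (8.29 CPM, against 26.9 and 24.7 CPM) and Npc1b (11.6 CPM, against 18.3 and 19.4 CPM) had their lowest. For lab and GATAe it lay between the other males. Across the 50 genes, the log2 ratio of male replicate 2 to the other males and the log2 fold change of metafemales over females had r = -0.754 and rho = -0.603, and across all 11995 genes tested -0.402 and -0.389. The measures share no library, but the genes share clusters and are not independent, and the relation was noticed in these data. The late larval gene Eig71Ee, a marker of the stage before pupation, had 34.6, 43.6 and 59.7 CPM in the metafemale libraries, against 233, 425 and 204 CPM in the males and 273, 297 and 287 CPM in the females, so that male replicate 2 was the highest and the metafemales the lowest. The other Eig71E genes tested were under 1 CPM, and male replicate 2 was highest in none of them. Eig71Eb and Eig71Eg were highest in female replicate 2 (0.527 and 0.647 CPM) and Eig71Ea in female replicate 3 (0.304 CPM). For Eig71Ea the metafemales overlapped the other groups, at 0, 0.161 and 0.284 CPM. The part of Eig71Ee in these results was not tested.

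**Figure D5:**
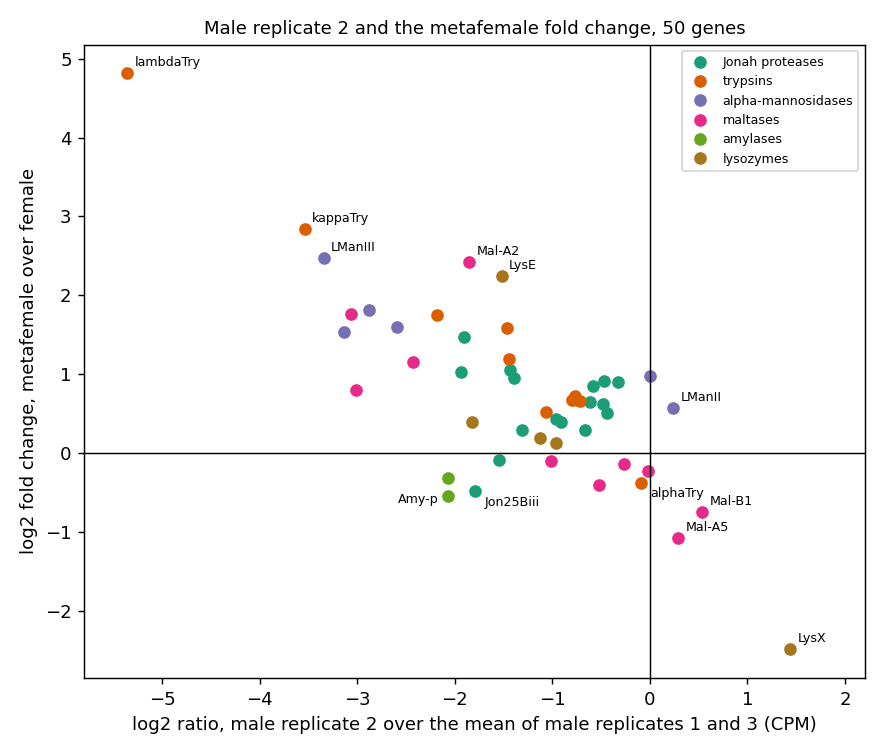
Log2 fold change of metafemale over female (y axis) against the log2 ratio of male replicate 2 over the mean of male replicates 1 and 3 (x axis), for 50 genes coloured by family. Genes low in male replicate 2, at the left, are mostly those high in metafemales, with lambdaTry at the upper left and LysX at the lower right.

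Other tissues also differed between the groups. The 6 midgut markers summed to 135, 121 and 120.1 CPM in metafemales, against 117, 139 and 111 CPM in males and 139, 139.6 and 149.5 CPM in females. Vha100-4, a subunit of a proton pump of the midgut, was called higher in metafemales than in females (log2 fold change 1.48, adjusted p = 0.000678), and PGRP-SC2 was called lower (-1.64, adjusted p = 0.00344). PGRP-SC2 was the largest part of the female sums, with 74.8, 58.8 and 89.5 CPM. The median log2 fold change of the 6 markers over females was 0.57. With the adjusted p alone 3 were higher, among them lab (0.86, adjusted p = 0.0115) and GATAe, and 2 were lower. Against males Vha100-4, lab and GATAe were called higher and PGRP-SC2 lower. Of the 9 salivary gland markers, all 6 glue genes (Sgs) were called lower in metafemales than in females and ng1, ng2 and ng3 higher, with sums of 1043, 2061 and 1911 CPM in metafemales, against 9608, 7330.3 and 6998 CPM in males and 6130.0, 7321 and 7681 CPM in females. Against males, 5 of the 6 glue genes were called lower, all but Sgs4, and the same 3 ng genes higher. The 5 body wall muscle markers were all called higher against females, and 3 of them (Act57B, up and wupA) against males. Of 11 Eig71E genes 4 were tested against females and 3 called lower, 2 were called lower against males, and 4 were at or under 3 counts in every library. Among those called against females, Eig71Eg held 0 counts in every metafemale library. It passed the filter on low counts only through the females, so its call supports nothing. Among 6 fat body markers Fbp1 was called lower against females (-2.51, adjusted p = 0.0112) and none against males, where none had an unadjusted p under 0.05 and DESeq2 called none, while Fbp1 and Fbp2 were called lower in males than in females. None of 4 nervous system markers was called in any comparison, with 0 at an unadjusted p under 0.05 and 0 by DESeq2. None of 3 Malpighian tubule markers was called, with 1 higher in metafemales at an unadjusted p under 0.05 against either group, 0 between males and females, and 0 by DESeq2. Among the called markers ng1, ng2, ng3, Sgs4, up and wupA lie on the X chromosome, so their number of gene copies differs between the groups. The part of all these tissue markers in the enzyme results was not tested.

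Other genes of digestion and absorption were described from a list of 26. Metafemales had 4 called higher than females, Ser6, Acbp3, Acbp4 and Acbp5, and 3 lower, Lip3, cathD and PGRP-SC2, with a median log2 fold change of 0.65. Ser6 lies on the X chromosome, so its number of gene copies differs between the groups. Acbp3, which binds acyl-CoA, had 152, 122 and 85.5 CPM in metafemales, against 6.88, 1.84 and 13.5 CPM in males and 8.72, 5.73 and 3.21 CPM in females, a log2 change over females of 4.32, adjusted p = 0.00114. The serine protease yip7, a relative of the Jonah proteases, had 1319, 1127 and 1041 CPM in the metafemale libraries, against 480.1, 516 and 500.2 CPM in the males and 638, 656 and 685 CPM in the females. It was under the fold threshold against females (0.83) and called higher than in males (1.36).

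Among 11 regulators of these genes none passed both thresholds against females, 4 had an unadjusted p under 0.05 (2 higher and 2 lower) and DESeq2 called none. Their median log2 fold change over females was -0.12, against -0.03 over all genes tested. With the adjusted p alone srp, a GATA transcription factor, was lower (log2 fold change -0.50, adjusted p = 0.0261), and Smox, a signal transducer of the activin pathway, was higher (0.49, adjusted p = 0.00476). Smox lies on the X chromosome, so its number of gene copies differs between the groups. GATAe, a related factor of the midgut, had 12.4, 10.3 and 10.6 CPM in metafemales, against 7.13, 5.78 and 3.94 CPM in males and 7.09, 6.97 and 7.24 CPM in females, a log2 change over females of 0.65, adjusted p = 0.00314. It was called higher than in males, as was sug, a factor that responds to sugar. Of 9 gut peptide hormones none passed both thresholds against females, DESeq2 called none, and 7 were higher at an unadjusted p under 0.05. Tk was called higher than in males.

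Single transcripts of these genes were less even than their sums. Jon25Bii-RB held 322 CPM in female replicate 1 and at most 0.036 CPM elsewhere, and Jon65Ai-RB held 474 CPM in metafemale replicate 2 and 475 CPM in male replicate 1 and at most 0.397 CPM elsewhere. Summed over transcripts, Jon25Bii had 1257, 1152 and 965 CPM in the metafemale libraries, against 521, 207 and 569.5 CPM in the males and 676, 557 and 508 CPM in the females. Jon65Ai had 1008, 995 and 909 CPM in metafemales, against 997, 611 and 948 CPM in males and 839, 877 and 680.2 CPM in females. Gene sums were used throughout, and 36 of the 51 genes have 1 transcript.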

How the data were processed

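Per the labels and the methods, reads (paired, 150 bases) were mapped by the authors to BDGP6 (Ensembl release 102) using Hisat2 2.0.5. The deposited table gives StringTie's expected counts for 42937 transcripts in 9 libraries, as unnormalized whole numbers. The library names in the table's header gave the groups. An expected count divides the reads of shared exons among transcripts, so counts were summed per gene: 34750 of 34919 FlyBase transcripts matched the annotation of Ensembl release 115 (BDGP6.54) and made 17714 genes, and that annotation gave the coordinates. Assembled transcripts (8017) entered the library totals only, and 1 entry that named a gene was left out. The strand setting is not given in the sources used here.

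Pairwise fits of 6 libraries used the quasi-likelihood test of edgeR 4.0.16 in R 4.3.3, after filterByExpr and TMM scaling, and Benjamini-Hochberg adjustment over all genes tested. The SE is the size of the log2 fold change divided by the square root of F. DESeq2 1.42.0 was an alternative. The tests were also run on simulated data, but the outcome is not given here and vouches for no result. Other alternatives were the scaling, the filters, a joint fit, the replicate block, summed neighbours and each library left out. Replicate numbers gave no clear sign of pairing the libraries.

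Genes named with all values were the 3 most abundant of each family, those called against females and the 5 largest called in the other comparisons. A gene named outside this rule (alphaTry, LysE and others given by their change) was chosen after its values were seen. The members and lists were chosen with earlier results of these data known.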

Additional observations from a re-analysis of the deposited data

How the results depend on the processing

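Against females, 16 genes were called higher and 2 lower. Without the fold threshold 30 were higher, a fit of all 9 libraries gave 6, and leaving out 1 library gave 12 to 20 higher and 1 to 2 lower. With neighbouring members summed into 14 clusters (chosen after seeing the data), 1 cluster was called higher, LManIII to LManVI, and 0 lower. Of all genes tested, 9.75% were called higher and 20.6% were higher at the adjusted p alone. At an adjusted p under 0.05, 8 of the 14 clusters were higher. Those 8 include Jon74E, which stands alone. Against males, 13 genes were called higher and 0 lower. Library size over annotated transcripts gave 7 higher and 2 lower, and at least 10 counts in every library gave 7 higher. No low-count filter gave 8 higher. Summed neighbours gave 1 cluster of 14, which was the single gene Jon74E, against 9.21% of all genes tested. The whole table as library size, DESeq2, no fold threshold and the joint fit each gave 1 gene lower. Leaving out 1 library gave 3 to 19 higher and 0 to 1 lower. Between males and females it gave 0 to 2 higher. The replicate block gave 16 higher and 2 lower against females, and 5 higher and 1 lower against males. Deviations of same-numbered libraries had correlations of -0.293 to 0.202, and the best match had the same number for some libraries only. With 3 libraries per group this gave no clear sign of pairing but cannot exclude it.

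Changes over females reversed for Amy-d without female replicate 1 (0.0571, not called, with a range of -0.58 to 0.0571 over the libraries left out) and for LysB with library size over annotated transcripts (-0.0085, not called). That scaling moved the median of all genes from -0.03 to -0.17 against females and from -0.13 to -0.41 against males. The cause of these shifts was not tested. The planned sum of copies with at least 90 percent identical proteins was not run, as no protein sequences were used here. Levels below 0.0229 CPM are at or under 3 counts in some libraries.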
